A study of Mus musculus with 4 samples.

Results

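The Myb locus of the mouse was described from Ahi1 through Myb to Hbs1l on chromosome 10. An accessible interval belonged to it when the authors had assigned the interval to Myb, Hbs1l or Ahi1, or when it had no assigned gene and lay between such intervals. These were 90 of the 220733 deposited intervals, 68 with a member gene and 22 without a gene, in the 427.6 kb stretch chr10:20951588-21379218 (build mm10). Joined across libraries where they shared at least 1 base, they formed 29 of the 69759 accessible regions of the series. The series compared chromatin accessibility, read by ATAC-seq from where a transposase can cut open DNA, in Lin-Sca1+Kit+ (LSK) bone marrow cells, a gate that holds hematopoietic stem and early progenitor cells. There were 2 libraries from p53R248W/+ mice, which carry 1 mutant and 1 normal allele of the tumor suppressor p53 (R248W 1 and R248W 2), and 2 libraries from p53+/+ mice (WT 1 and WT 2). Each was made from 50000 cells. The labels gave neither the ages nor the number of mice, so the spread between libraries may be technical.

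Myb encodes a transcription factor that keeps hematopoietic progenitors dividing and is turned down as they mature. It is transcribed away from Hbs1l, and in mouse erythroid cells the DNA between the start sites of Myb and Hbs1l is known to hold distant enhancers of Myb bound by LDB1, GATA1 and TAL1. Hbs1l encodes a GTPase that, with Pelota, releases stalled ribosomes. Ahi1, on the other flank, encodes a protein of the transition zone of the primary cilium, and was first known in mice as a retroviral insertion site in leukemia and lymphoma.

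The sequences below are the 250 bases before 5 annotated starts of the locus, 5′ to 3′ on the strand of each gene (RefSeq, GRCm38.p6, the same build as mm10). The first 3 are the promoters of the member genes. The last 2 precede the starts of the long noncoding RNA genes Gm33619 and Gm33728, and are shown because the strongest intervals between Myb and Hbs1l have their summits there. All 5 windows lay inside a called interval in all 4 libraries. Capitals mark matches on either strand to GGGCGG (the core bound by SP and KLF factors), TGAGTCA (AP-1) or TGTGGT (RUNX).
Myb, chr10:21160985-21161234, minus strand: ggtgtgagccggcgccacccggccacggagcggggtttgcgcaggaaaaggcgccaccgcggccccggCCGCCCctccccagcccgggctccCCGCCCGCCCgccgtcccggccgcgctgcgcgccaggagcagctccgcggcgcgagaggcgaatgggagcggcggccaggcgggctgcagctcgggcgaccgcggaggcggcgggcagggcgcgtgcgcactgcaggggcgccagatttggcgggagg
Hbs1l, chr10:21295729-21295978, plus strand: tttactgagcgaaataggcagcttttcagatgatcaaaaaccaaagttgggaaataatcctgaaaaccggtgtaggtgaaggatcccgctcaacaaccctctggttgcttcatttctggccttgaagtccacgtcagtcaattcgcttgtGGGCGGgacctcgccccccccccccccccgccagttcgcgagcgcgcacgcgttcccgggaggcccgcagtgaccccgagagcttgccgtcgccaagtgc
Ahi1, chr10:20952297-20952546, plus strand: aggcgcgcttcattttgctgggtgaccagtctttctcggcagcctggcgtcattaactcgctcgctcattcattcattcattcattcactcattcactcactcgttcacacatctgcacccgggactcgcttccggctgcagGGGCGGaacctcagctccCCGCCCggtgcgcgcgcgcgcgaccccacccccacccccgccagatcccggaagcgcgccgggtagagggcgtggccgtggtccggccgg
Gm33619, chr10:21186694-21186943, plus strand: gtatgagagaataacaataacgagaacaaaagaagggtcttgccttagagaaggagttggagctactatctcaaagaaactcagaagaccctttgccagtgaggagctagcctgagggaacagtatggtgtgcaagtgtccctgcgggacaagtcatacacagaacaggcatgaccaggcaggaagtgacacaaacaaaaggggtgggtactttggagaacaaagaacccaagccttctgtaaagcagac
Gm33728, chr10:21252243-21252492, minus strand: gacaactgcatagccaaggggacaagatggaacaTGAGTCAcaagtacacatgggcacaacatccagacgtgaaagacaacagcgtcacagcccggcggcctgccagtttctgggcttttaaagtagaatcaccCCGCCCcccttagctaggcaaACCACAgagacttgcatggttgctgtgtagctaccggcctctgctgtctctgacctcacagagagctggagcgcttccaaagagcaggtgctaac

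The Myb promoter was very rich in G and C. Its GC content was 81.2%, above that of 99.1% of the 32841 RefSeq promoter windows of the same length, and it held 40 CpG dinucleotides against a median of 6. GGGCGG matched at 3 places in it, 2 of them overlapping, at 2 places in the Ahi1 promoter and at 1 in the Hbs1l promoter, and 32.7% of all windows held a match. The Ahi1 and Hbs1l promoters had 65.6% and 58.4% GC with 28 and 19 CpG. The windows at Gm33619 and Gm33728 were of another kind, with 47.2% and 54.4% GC and only 2 and 7 CpG. The Gm33728 window held 1 match to TGAGTCA, found in 4.46% of all windows, and 1 to TGTGGT, found in 14.0%, beside 1 GGGCGG. A p53 half-site, searched by its usual degenerate pattern, matched once, in the Gm33619 window, and 7.13% of all windows had such a match. MYB cores (AACNG) numbered 2, 2 and 3 in the windows of Hbs1l, Gm33619 and Gm33728, where 74.2% of all windows had at least 1. None of the 5 windows held the letters searched for ETS factors (CCGGAAGT), for GATA factors (AGATAA) or for the CCAAT box, which 2.88%, 9.99% and 33.9% of all windows held. The same was true of those for E2F (TTTCCCGC), in 0.895% of all windows, and of the palindromic NRF1 site, in 0.783%. Neither E-box searched was there: CACGTG, in 6.02% of all windows, and, as found beside GATA sites, CAGCTG, in 13.0%. For ETS, E2F and NRF1 only exact letters were searched, so variant forms of these sites were not counted. These matches describe letters and do not show binding.

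Signal in what follows is the authors' value of the highest bin of an interval in its library, in units with no stated scaling. Lists were longer and signals higher in R248W 1 (60385 intervals, median signal 62) and WT 2 (62478, median 62) than in R248W 2 (51150, median 50) and WT 1 (46720, median 52). The long lists thus came from 1 library of each genotype, and sequencing depth was unknown. At 13 of the 14 locus regions called in every library, both R248W 1 and WT 2 had a higher signal than both other libraries, as at 86.4% of such regions in the series. Each signal was therefore also given as a percentile of its own library's list, which needs no scaling between libraries. A percentile still depends on what else its list holds. Over the 14 shared locus regions it averaged 69.5 and 62.7 in R248W 1 and R248W 2, against 63.9 and 68.6 in WT 1 and WT 2. It was thus again higher in the libraries with the long lists. Of 10 marker genes of stem and progenitor cells, 7 had an interval with its summit within 1000 bases of a start in all 4 libraries. Flt3, Meis1, Cd34, Hlf and Kit had mean percentiles of 98.2, 93.7, 91.4, 90.7 and 89.6, but Cd48 and Procr only 40.7 and 8.94. Slamf1 had a start interval in R248W 1 and WT 2 only, and Ly6a, the gene of Sca-1 itself, and Mecom had none in any library. Among genes of mature lineages that the gate removes, Itgam had a start interval in every library (mean percentile 63.9), while Cd3e and Ms4a1 had none in any.

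**Figure D1:**
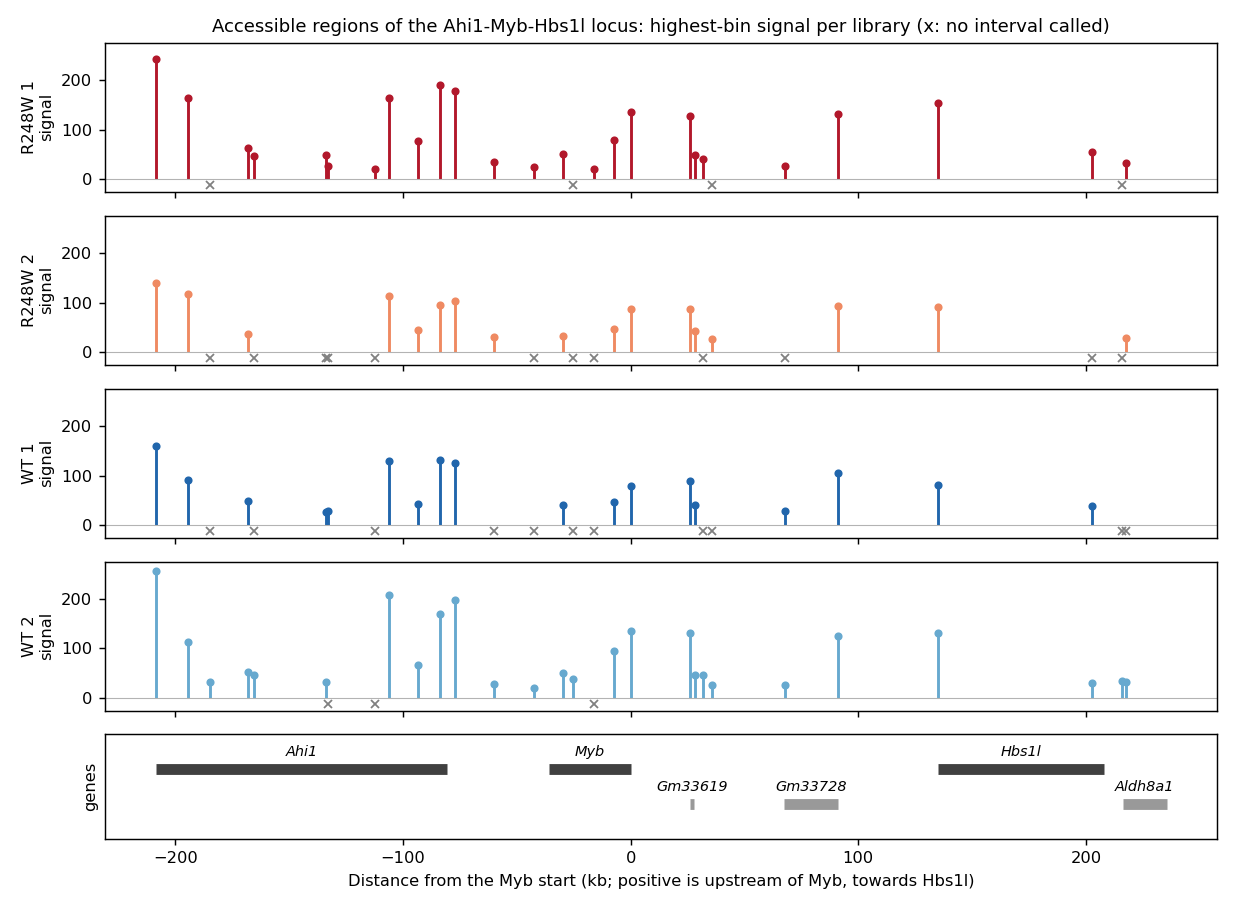
Highest-bin signal (y, authors' units) of each region of the locus in R248W 1, R248W 2, WT 1 and WT 2 (panels, top to bottom) against the distance of its summit from the Myb start in kb (x). Crosses mark regions with no interval called in that library, and bars at the bottom are RefSeq genes. The same 14 regions were called in every panel, and the tall lines lie in and just past Ahi1, at the starts of Myb and Hbs1l and 25.9 and 91.3 kb upstream of Myb.

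The start sites of Myb, Hbs1l and Ahi1 were accessible in all 4 libraries, each in 1 interval over a CpG island, and these were the only intervals of the locus with a CpG island. The interval at the Myb start had signals of 135 and 88 in R248W 1 and R248W 2, against 78 and 136 in WT 1 and WT 2. At the Hbs1l start the signals were 154 and 92 in R248W 1 and R248W 2, against 81 and 131 in WT 1 and WT 2. The groups overlapped at both genes. In bulk material, a site open in fewer cells and a site less open in each cell cannot be told apart. The Ahi1 start was the strongest place of the locus, with 243 and 140 in R248W 1 and R248W 2, against 159 and 255 in WT 1 and WT 2, and there too the groups overlapped. The mean percentile over the 4 libraries was 73.3 for Myb, 74.6 for Hbs1l and 87.8 for Ahi1. Among the 9253 regions of the series with a CpG island, a summit near a start and a call in every library, 27.4% were lower than Myb, 28.9% lower than Hbs1l and 54.6% lower than Ahi1, and their median was 86.1. RefSeq lists a further Ahi1 start at position 21040820, and no library had an interval within 1000 bases of it.

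The open interval at the Myb start extended farther into the gene in the R248W libraries. It was 4.38 and 4.42 kb long in R248W 1 and R248W 2, against 1.96 and 3.49 kb in WT 1 and WT 2. The upstream edges lay within a narrow range, 1289 and 1273 bases before the start in R248W 1 and R248W 2 and 1178 and 1238 bases in WT 1 and WT 2. The edges inside the gene lay 3091 and 3146 bases after the start in R248W 1 and R248W 2, against 786 and 2252 bases in WT 1 and WT 2. No other WT interval covered the rest of that stretch. The groups did not overlap: the shorter R248W interval exceeded the longer WT interval by 890 bases, and in 0.128% of the 40492 regions called in all 4 libraries this excess was as large. The difference in mean length was 1673 bases, and it was 910 bases without WT 1, whose interval was the shortest. The mean-bin signal over the interval was 34.9 and 24.6 in R248W 1 and R248W 2, against 34.1 and 34.3 in WT 1 and WT 2, so the longest interval, in R248W 2, had the lowest mean. The list of R248W 2 as a whole was shorter than those of R248W 1 and WT 2. WT 1, with the shortest interval at Myb, had the shortest list (46720 intervals, against 51150 in R248W 2). Whether list length bears on interval length was not tested. The exact permutation test of the lengths gave p = 0.33, two-sided, the smallest that 2 libraries against 2 allow. The comparison was chosen after the lengths were seen, so neither this p nor the share of 0.128% is support for it. That share was taken over regions of all lengths, not over intervals as long as those at Myb.

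**Figure D2:**
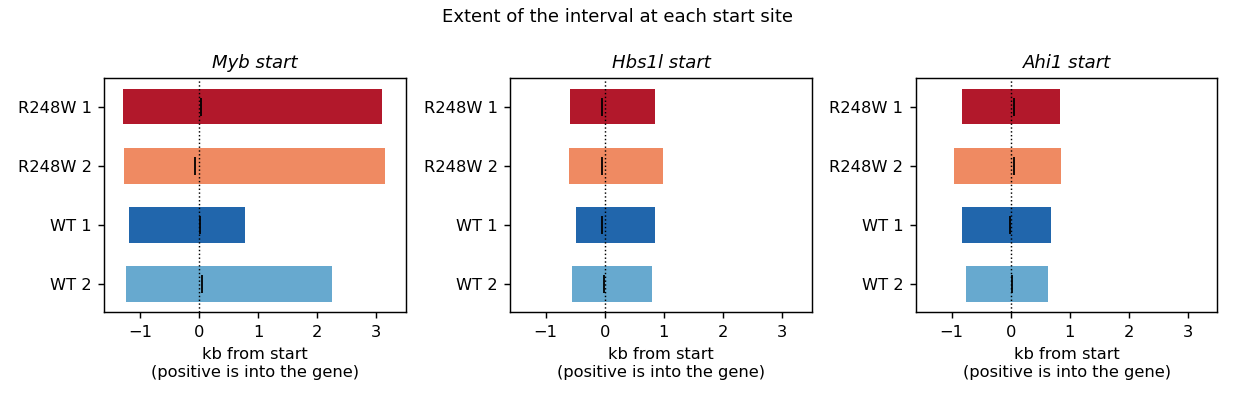
Extent of the interval at the starts of Myb, Hbs1l and Ahi1 (panels) in R248W 1, R248W 2, WT 1 and WT 2 (rows, top to bottom), in kb from the start, with positive values inside the gene; the black tick is the summit. At Myb the R248W intervals reach 3.09 and 3.15 kb into the gene, against 0.786 and 2.25 kb for WT 1 and WT 2, while the upstream edges nearly coincide.

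Intervals at the other starts differed in length in the same direction but by less. At Hbs1l they measured 1445 and 1594 bases in R248W 1 and R248W 2, against 1340 and 1350 bases in WT 1 and WT 2. At Ahi1 they measured 1664 and 1810 bases in R248W 1 and R248W 2, against 1511 and 1377 bases in WT 1 and WT 2. The 3 start regions were thus longer in both R248W libraries than in both WT libraries, and they were the only ones of the 14 shared locus regions of which this held. None of the 14 was shorter in both. In the series, 15.1% of the regions called in all libraries were longer and 12.7% shorter by this rule, and among CpG island start regions 15.5% were longer and 11.3% shorter. Interval edges depend on where a peak caller stops, and read depth could not be compared.

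The stretch of 135 kb between the starts of Myb and Hbs1l held 6 accessible regions, none assigned to a gene by the authors, of which 3 were called in all 4 libraries. The strongest were the nearest to Myb and the farthest. The region 25.9 kb upstream of the Myb start (chr10:21186299-21187507) had signals of 128 and 88 in R248W 1 and R248W 2, against 89 and 131 in WT 1 and WT 2. Its summit lay 32 to 96 bases before the RefSeq start of Gm33619. The region 91.3 kb upstream (chr10:21251473-21252895) had 131 and 93 in R248W 1 and R248W 2, against 106 and 125 in WT 1 and WT 2. Its summit lay at the same place in all 4 libraries, 46 bases before the start of Gm33728, whose transcript is annotated towards Myb. The groups overlapped at both regions. Their mean percentiles, 73.9 and 75.5, were close to those of the Myb and Hbs1l promoters, and above 81.0% and 83.0% of the 9304 regions of the series that were called in all libraries and had no assigned gene, whose median was 51.4.

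The other 4 regions between Myb and Hbs1l were weaker. A shared region 28.2 kb upstream of Myb had signals of 49 and 43 in R248W 1 and R248W 2, against 40 and 46 in WT 1 and WT 2. Next to it, 31.6 kb upstream, an interval was called in R248W 1 (40) and WT 2 (47) only. At 35.8 kb upstream, intervals were called in R248W 2 (26) and WT 2 (27). At 67.7 kb upstream, where the annotated ends of Gm33671 and Gm33728 meet, they were called in R248W 1 (26), WT 1 (29) and WT 2 (27). None of the 3 followed genotype. Beyond the region at 91.3 kb there was no interval in any library for 42.5 kb, up to the Hbs1l promoter.

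Inside and behind Myb there were 5 regions besides the promoter, 2 of them called in every library. The stronger, 7.2 kb inside the gene from its start (chr10:21153009-21154413), had signals of 80 and 47 in R248W 1 and R248W 2, against 47 and 94 in WT 1 and WT 2. The weaker, 29.7 kb inside (chr10:21130740-21131712), had 51 and 32 in R248W 1 and R248W 2, against 41 and 50 in WT 1 and WT 2. The groups overlapped at both. An interval 25.5 kb inside was called in WT 2 alone (38), one 16.0 kb inside in R248W 1 alone (20), and one past the end of the gene in R248W 1 (24) and WT 2 (20). Myb thus had 6 assigned regions, more than 87.4% of the 20811 genes with any region, whose median was 3.

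Ahi1 had 12 assigned regions, the most of the 3 genes and more than 97.4% of genes with any region, and 7 of them were shared by all libraries. It is a gene of 128.2 kb, and counts of regions were not corrected for length. Past its start, the strongest shared regions lay towards its far end, on the side of Myb. The one 102.4 kb inside Ahi1 (chr10:21053810-21055924) had signals of 163 and 114 in R248W 1 and R248W 2, against 129 and 208 in WT 1 and WT 2. The one 124.7 kb inside (chr10:21076645-21078206) had 189 and 96 in R248W 1 and R248W 2, against 131 and 170 in WT 1 and WT 2. Just past the gene, 131.1 kb from its start and 77.3 kb from that of Myb (chr10:21082614-21084573), the signals were 177 and 104 in R248W 1 and R248W 2, against 125 and 198 in WT 1 and WT 2. Their mean percentiles were 82.5, 81.2 and 82.0, all above the Myb promoter's 73.3. Between these lay a broader region of 2788 bases (chr10:21065230-21068018) with 2 intervals in each library, whose higher signals were 78 and 45 in R248W 1 and R248W 2, against 42 and 67 in WT 1 and WT 2. A weaker shared region 40.3 kb inside had 63 and 36 in R248W 1 and R248W 2, against 48 and 53 in WT 1 and WT 2.

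Hbs1l had 4 assigned regions, of which its promoter alone was shared by all libraries. From that promoter, no library had an interval for 66.0 kb of the gene's 72.9 kb. An interval 67.5 kb inside was called in R248W 1 (54), WT 1 (39) and WT 2 (31). The last 2 regions lay past Hbs1l at the start of Aldh8a1, a retinaldehyde dehydrogenase gene to which the authors also assigned them. One was called in WT 2 alone (34) and the other in R248W 1 (33), R248W 2 (28) and WT 2 (32).

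To ask whether the locus differed in mutant cells, calls and ranks were compared between genotypes. Of the 29 regions, 14 were called in all 4 libraries (48.3%, against 58% of all regions of the series). R248W-only regions, called in both R248W libraries and in neither WT library, numbered 0, against 1.23% of all regions, and WT-only regions numbered 0, against 0.827%. The other 15 regions were called in 11 cases in R248W 1 and 3 in R248W 2, against 4 in WT 1 and 12 in WT 2. In the series, 66.9%, 34.8%, 19.9% and 73.5% of the regions missing from any list were called in R248W 1, R248W 2, WT 1 and WT 2. Those 15 had signals of 20 to 54, and the 14 shared ones had 32 to 255. The calls of 0 rest on having 2 libraries a genotype. Without R248W 2, or without WT 2, some regions were R248W-only, and without R248W 1, or without WT 1, some were WT-only. The rule is then easier to meet, and the share of the series was not computed for it.

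Whole-locus measures did not separate the genotypes. There were 26 and 18 intervals in R248W 1 and R248W 2, against 19 and 27 in WT 1 and WT 2, with means of 22 ± 5.66 in R248W and 23 ± 5.66 in WT (SD, n = 2 libraries each; two-sided exact permutation test, p = 0.67). The covered length averaged 27.8 ± 6.66 kb in R248W and 26.7 ± 6.61 kb in WT (exact permutation test, p = 0.67). The mean percentile of the 14 shared regions averaged 66.1 ± 4.81 in R248W and 66.2 ± 3.34 in WT (exact permutation test, p = 1). With 2 libraries against 2 the smallest possible p is 0.33, so these tests could not have passed 0.05.

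**Figure D3:**
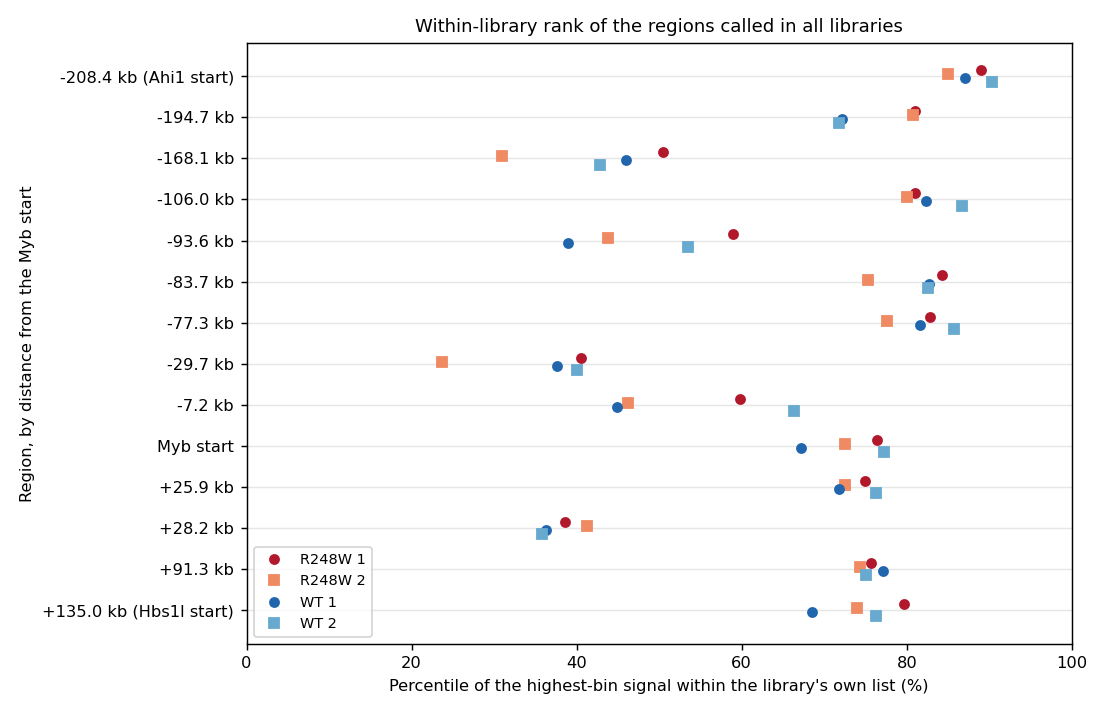
Percentile of the highest-bin signal within its own library's list (x, %) for the 14 regions called in all 4 libraries, ordered by distance from the Myb start (y; negative on the side of Ahi1). Circles and squares are the first and second library of each genotype. The genotypes separate at -194.7 kb (R248W higher), +28.2 kb (R248W higher) and -106.0 kb (R248W lower).

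Single regions whose percentiles did not overlap between genotypes numbered 2 higher and 1 lower in R248W of the 14 shared, or 14.3% and 7.14%, against 12% and 8.56% of all shared regions of the series. These shares are near those of the series. With the same number of intervals per library, the counts were 2 higher and 3 lower, and the shares of the series were not computed for that setting. The widest gap was 13.8 kb inside Ahi1 (chr10:20965750-20966881), with signals of 163 and 117 in R248W 1 and R248W 2, against 90 and 112 in WT 1 and WT 2. Its percentiles were 81.0 and 80.7 in R248W 1 and R248W 2, against 72.1 and 71.8 in WT 1 and WT 2. It was also the only locus region with no overlap on the signal as deposited, a rule that 3.05% of shared regions met upwards and 2.33% downwards. At 28.2 kb upstream of Myb the percentiles were 38.6 and 41.3 in R248W 1 and R248W 2, against 36.3 and 35.8 in WT 1 and WT 2. At 102.4 kb inside Ahi1 they were 81.0 and 80.1 in R248W 1 and R248W 2, against 82.4 and 86.7 in WT 1 and WT 2. Neither separated on the signal as deposited. The counts of regions higher and lower in R248W were both larger with any 1 library left out, where non-overlap is easier to meet. The region 13.8 kb inside Ahi1 kept a difference of 8.70 to 9.05 percentile points when any 1 library was left out. Its percentiles, by which it was picked, were close within each genotype. That range follows from them and is no further support.

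Genes that work with the members were read in the same way, from lists chosen with earlier results of these data known. A start interval was present in all 4 libraries for 66.5% of the 16070 protein-coding genes with a region. Among cofactors and paralogs of MYB this held for 10 of 12 genes, among them Mybl2 and Mybl1, the other members of the MYB family (mean percentiles 97.8 and 95.1), Men1, the gene of menin (94.1), and Crebbp, the gene of the coactivator CBP (89.4). Among factors known to regulate Myb or to bind near it, it held for 9 of 16, with Ets1 (97.8), E2f1 (97.5) and Zfpm1, the gene of the GATA partner FOG1 (97.3), highest. Tal1, Lmo2, Gata2 and Klf1 had regions but no start interval in any library. For all genes of the lists, start intervals were read from the authors' distances, and other starts of a gene were not searched. Among known targets of MYB it held for 12 of 18, with Ccne1 (98.3), Flt3 (98.2) and Meis1 (93.7) highest, while Elane, Rag2 and Gata3 had no start interval.

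Partners of the flanking genes had a start interval in all 4 libraries at 16 of 17 genes of ribosome rescue and mRNA surveillance. The same held for 18 of 20 genes of a ciliary list. That list held transition zone genes and also others, such as Arl13b, and Bcr, which is not a ciliary gene. Pelo, whose product Pelota is the partner of HBS1L, had start signals of 269 and 193 in R248W 1 and R248W 2, against 150 and 214 in WT 1 and WT 2. Etf1, the gene of the release factor eRF1, Ltn1 and Gtpbp2 were highest (mean percentiles 99.6, 99.1 and 98.7). In the ciliary list Rpgrip1l, Arl13b and B9d2 were highest (mean percentiles 99.98, 99.6 and 98.6). An interval near a start can also cover the start of a neighboring gene.

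Genotype-specific regions were found at 0 to 3 genes of each list. R248W-only regions lay at 0 of 12 cofactor genes, 1 of 16 regulators (Zfpm1, 59 and 38 in R248W 1 and R248W 2) and 0 of 18 targets. They lay at 1 of 17 ribosome rescue genes and 3 of 20 genes of the ciliary list. Of all genes with a region, 3.68% carried an R248W-only region. WT-only regions lay at 0, 1, 2, 0 and 0 genes of the same lists, against 2.33%. These were Fli1 among the regulators (36 and 52 in WT 1 and WT 2) and, among the targets, Cdk6 (60 and 106) and Hoxa9 (102 and 146). The signals at Cdk6 and Hoxa9 were the highest of the lists' genotype-specific regions. The WT-only regions lay 19832, 153448 and 5642 bases from the starts of Fli1, Cdk6 and Hoxa9. Fli1 and Hoxa9 had no start interval in any library. The ribosome rescue gene was Wdr61, a subunit gene of the SKI complex, with a region 9824 bases upstream of its start (22 and 20 in R248W 1 and R248W 2). The ciliary genes were Nphp4 (36 and 37), Tctn1 (31 and 27) and Tctn2 (25 and 31), whose R248W-only regions lay 52594, 22140 and 12387 bases from the start, inside or behind the gene. The signals of these 4 regions lay below the lowest library median of 50.

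As a description of likeness, the summed signal of all intervals assigned to each gene was compared over the 4 libraries. Myb summed to 310 and 167 in R248W 1 and R248W 2, against 166 and 338 in WT 1 and WT 2. The nearest of the 18951 genes with intervals in every library were Ntn4, Mob4 and Ppp1r9b, at Euclidean distances of 0.057, 0.074 and 0.075 on the log2 scale. Hbs1l summed to 241 and 120 in R248W 1 and R248W 2, against 120 and 228 in WT 1 and WT 2, and was nearest to B3galt2, Slc7a4 and Anxa2 (0.097, 0.10 and 0.10). Ahi1 summed to 1259 and 697 in R248W 1 and R248W 2, against 813 and 1217 in WT 1 and WT 2, and was nearest to Trerf1, Wbp11 and Hnrnpf (0.084, 0.099 and 0.10). With 4 libraries, 30 to 60 genes lay within 0.2 of each member, so these names carry little weight.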

How the data were processed

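The deposited table lists accessible intervals called by the authors separately in each of 4 ATAC-seq libraries. The submitters' processing notes name MACS 1.4.2 as a tool and mm10 as the build. Not given in the sources used here are the aligner, read filters, adjustment for transposase insertion, depth and signal scaling. Per the file headers, each interval carries the deposited signal of its highest bin and its mean-bin signal, and the genes the authors assigned to it with the distance from summit to start. Interval starts may be counted from 0.

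Intervals sharing at least 1 base were merged over the whole table. Each signal was ranked within its library as a percentile. Because the table has a value only where an interval was called, regions were compared by presence and by non-overlap of percentiles, beside the share of all regions. Single values per library were compared by exact permutation tests. The counting was tested on simulated data. Promoter windows came from a RefSeq table of GRCm38.p6; motifs were searched on both strands, and windows with letters other than A, C, G and T were left out. Named regions were the member starts, the 10 shared regions of highest mean percentile, all genotype-specific or non-overlapping regions, and, of each list, the 3 highest members and those with genotype-specific regions; the length of the Myb interval and all further examples were chosen after their values were seen. Some items on the lists are not reported here. Of 104 list genes, 97 had a region, 4 under an older symbol. The members and lists were chosen with earlier results of these data known. Alternatives tried were lists cut to their best 50% or to 46720 intervals each, sharing defined by 50% reciprocal overlap, mean-bin signal, signal as deposited, a replicate block, and each library left out. Analyses used python 3.11.15 and pandas 2.3.3.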

Additional observations from a re-analysis of the deposited data

How the results depend on the processing

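Sequencing depth is unknown, so a missing call does not show closed chromatin. Of 64 values recomputed under the alternatives, 39 stayed within the limits set for them, 17 counts moved by more and 8 differences changed sign. The limits were counts within 1.5 times, and differences not of opposite sign and on the same side of 0.05, whatever their size. The side of 0.05 could not change, because the smallest possible p was 0.33 or more. The difference in intervals was 0 with equal lists and counted as within the limits. With the best 50% of each list, 9 regions were called in all libraries, 1 was higher in R248W, the difference in intervals turned to 0.5 and that in mean percentile to 0.50. With equal numbers of intervals per library, 3 regions were lower in R248W. By mean-bin signal 2 were lower, and by signal as deposited 1 was higher and 0 lower. With each library left out in turn, R248W-only regions ranged from 0 to 2, WT-only regions from 0 to 3, regions higher in R248W from 3 to 9 and lower from 2 to 7. The R248W minus WT difference then ranged from -5 to 3 in intervals, from -3683.5 to 5738.5 in covered bases and from -2.29 to 4.77 in mean percentile, with both signs in each. The cause of these shifts was not tested, and the shares of the whole series with a library left out or with equal lists were not computed.

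Libraries of the genotypes share the numbers 1 and 2. Their deviations from the group means had a correlation of -0.020 over 40492 regions. That value showed no pairing by number, but a single correlation cannot exclude pairing. With the replicate block, 2 regions were higher and 2 lower in R248W, and the differences in intervals, covered bases and mean percentile were -1, 1027.5 and -0.12 as without it. Of 135 values of single shared regions, recomputed as alternatives added after seeing the data, 23 moved by more than the spread between replicates or were on another scale, and 13, at 9 regions, changed sign. None of the 9 was among the 3 regions that separated the genotypes. Their non-overlap had fixed the sign in advance for each left-out library and the replicate block, so this is no support for them. The Myb and Hbs1l start regions turned to -6.45 and -3.23 percentile points by mean-bin signal.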
